A study of Pseudotsuga menziesii with 66 samples.

Results

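The change in needle transcripts of Douglas-fir (Pseudotsuga menziesii) over 16 days of late winter was measured by setting the libraries of 23 Feb 2011 against those of 7 Feb 2011. The comparison takes in 9 of the 66 libraries of a series that followed 5 trees over 16 dates from 27 Oct 2010 to 26 Oct 2011. The 4 libraries of 23 Feb came from trees CCTO43, CCTO44, CCTO46 and CCTO89, and the 5 libraries of 7 Feb came from these trees and CCTO90. Libraries were assigned to dates and trees by their labels, and no measured value entered that choice.

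All 5 trees came from low-elevation seed sources of the Oregon Siskiyou region and grew in 1 common garden at Central Point, Oregon, under outdoor weather. CCTO43, CCTO46 and CCTO89 shared 1 seed source, and CCTO44 and CCTO90 shared another at a higher elevation. Needles of the cohort formed in 2010 were taken near noon, so they were in their first winter in February. The labels name no treatment, and the groups differ in date and in the absence of CCTO90 on 23 Feb. Each date was a single day shared by all trees, with 1 library per tree, so the season, the weather of that day and the age of the needles cannot be told apart.

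Needles of evergreen conifers stay on the tree through winter. In autumn they harden to frost and lower their photosynthesis, while light that cannot be used for growth is given off as heat. In late winter and spring, hardiness is lost and photosynthesis recovers as days lengthen and temperatures rise. Late February lies within this return, before the buds open.

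RNA was measured as counts per transcript in strand-marked poly(A) libraries, and levels are given as CPM, counts scaled to a library total of 1000000 after adjustment by trimmed mean of M values (TMM). Totals were between 10951919 and 31476493 counts, with a median of 25117918 on 23 Feb and 18920027 on 7 Feb. Tests covered 60931 of the 199471 transcripts listed, which held 99.4% to 99.7% of the counts of each of the 9 libraries. A transcript without a count in 1 of these libraries could have been present at up to 3 counts, counting error only. That is 0.0953 to 0.274 per 1000000 counts depending on the library, without the TMM adjustment. The files do not pair transcript identifiers with gene names, so marker genes of needles could not be looked up, and the few transcripts singled out are given by identifier.

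The labels were checked against the values through the trees. After date means were removed, each of the 9 libraries was most like the rest of its own tree's libraries, with correlations of 0.499 to 0.633, while the best correlation with another tree was between -0.0771 and 0.155. In the deposited tables the columns named for CCTO43 and CCTO46 on 23 Feb stand among the columns of other trees, and they too were most like the tree they are named for, with correlations of 0.610 and 0.499. The columns named for CCTO46 and CCTO90 on 7 Apr also stand among those of other trees. Libraries of that date were not checked in this way.

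Over these 16 days, both rises and falls were spread through the needle transcriptome. On 23 Feb 3639 transcripts were higher and 3138 were lower than on 7 Feb, by edgeR's quasi-likelihood F test with tree as a block at a Benjamini-Hochberg adjusted p under 0.05. The 6777 called transcripts were 11.1% of those tested, with 5.97% higher and 5.15% lower. Over all calls the rises were the smaller changes, with a median log2 change of 0.85 against -1.17 among the transcripts that fell. The order turned round at mean levels of 10 to 100 CPM, where the medians were 0.72 and -0.64. A change of at least 2-fold was reached by 1300 of the higher and 1786 of the lower transcripts, and at least 4-fold by 239 and 658 of them. Over all transcripts tested the median log2 change was 0.01, with a median standard error of 0.41. Rises outnumbered falls under TMM scaling but not under relative log expression (RLE) size factors, which gave 3063 rises and 3652 falls. Because whole needles were used, fewer cells of a type and less RNA per cell cannot be told apart.

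The number of calls depended on which trees were in the model. It was 4342 without CCTO43, 1813 without CCTO44, 3000 without CCTO46, 4131 without CCTO89 and 7239 without CCTO90, the tree that has no library of 23 Feb. Without the 23 Feb libraries of CCTO43 and CCTO46, whose columns stand among those of other trees, 2705 transcripts were called, 1796 higher and 909 lower.

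**Figure D1:**
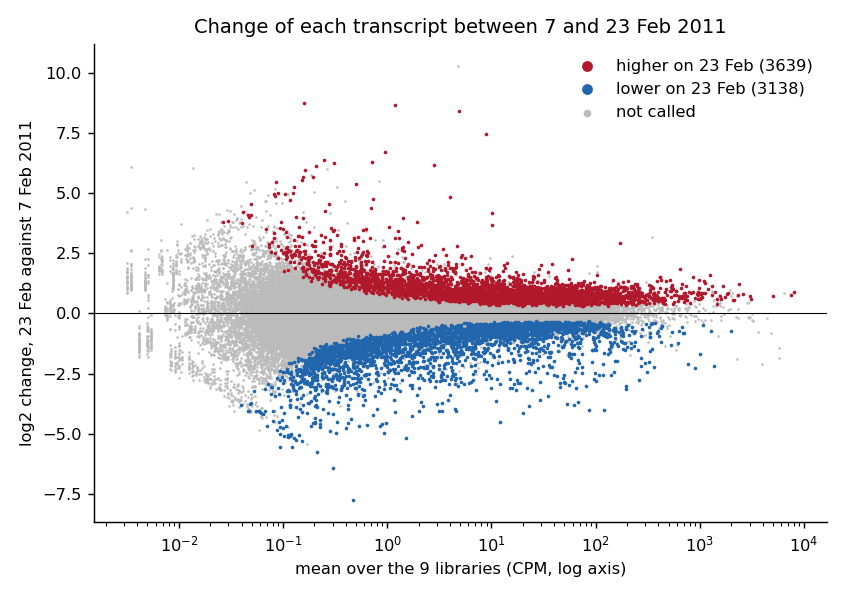
Log2 change of each of the 60931 tested transcripts on 23 Feb against 7 Feb 2011 (vertical axis) by its mean level over the 9 libraries in CPM (horizontal log axis), with the 3639 transcripts called higher in red, the 3138 called lower in blue and the rest in grey. Red points crowd the right side at small changes, while blue points reach further from 0 on the left side.

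Rises and falls sat at different levels of abundance. Among the 1342 most abundant transcripts, those with a mean of at least 100 CPM over the 9 libraries, 423 rose and 145 fell, which is 31.5% and 10.8% of the class. Below 1 CPM the order turned round, with 549 of 33389 higher and 975 lower. These 2 classes kept their order under RLE size factors, at 376 higher and 175 lower in the most abundant class and 456 higher and 1065 lower below 1 CPM. The classes between them did not: 1468 of 9595 rose and 1039 fell between 10 and 100 CPM, against 1237 each by RLE, and 1199 of 16605 rose and 979 fell between 1 and 10 CPM, against 994 and 1175 by RLE. The largest changes were also at the low end, since 190 of the 239 rises and 438 of the 658 falls of at least 4-fold were in transcripts under 1 CPM. Under 1 CPM the median log2 change was 1.69 for transcripts that rose and -1.91 for those that fell. It was 0.90 and -1.09 at 1 to 10 CPM, and 0.72 and -0.64 at 10 to 100 CPM. In the most abundant class it was 0.74 and -0.81. Count tests have smaller errors for abundant transcripts, and the part of this in the shares called was not tested.

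The transcripts that rose were a large part of the RNA. They held 34.7% of all counts in CCTO43, 33.8% in CCTO44, 31.5% in CCTO46 and 32.0% in CCTO89 on 23 Feb, against 21.9%, 20.4%, 20.4%, 18.6% and 23.0% on 7 Feb in CCTO43, CCTO44, CCTO46, CCTO89 and CCTO90. The transcripts that fell held 5.31%, 5.03%, 5.72% and 5.91% on 23 Feb, against 11.9%, 11.9%, 12.1%, 12.4% and 9.39% on 7 Feb, with the trees in the same order. The shares of the 2 dates did not overlap in either set; since the sets were called on these libraries, the shares describe their size and carry no test.

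Within the called sets, the changes of single trees mostly shared the called direction; since the calls were made on these same trees, these first counts carry no test. Of the transcripts called higher, 3492 of 3639 (96.0%) were higher on 23 Feb in each of the 4 trees with both dates, and of those called lower, 2955 of 3138 (94.2%) were lower in each. Over all transcripts tested, 19.4% were higher in all 4 trees and 16.8% were lower in all 4. Calls made without a tree were then looked up in that tree, for transcripts that were among the 60931 tested with all trees. CCTO43 moved the called way in 2307 of 2378 transcripts called higher without it (97.0%) and in 1869 of 1964 called lower (95.2%). CCTO44 did so in 831 of 839 higher (99.0%) and 927 of 946 lower transcripts, and CCTO46 in 1466 of 1531 (95.8%) and 1364 of 1429 (95.5%). CCTO89 followed in 2328 of 2428 higher (95.9%) and 1595 of 1702 lower transcripts (93.7%). The same trees were above 0 in 45.3% to 55.0% of all transcripts tested and below 0 in 44.7% to 48.5%. The median change in the left-out tree was 0.68 to 1.19 for transcripts called higher and -0.82 to -1.11 for those called lower, on the log2 scale.

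Across transcripts, the change in 1 tree resembled the change in another most closely where counts were high. Over 10937 transcripts with at least 10 CPM, Pearson's correlation between the changes of 2 trees was 0.742 to 0.848 in the 6 pairs of trees, and over all 60931 it was 0.349 to 0.464. Transcripts are not independent replicates, so these values are a description.

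The 4 transcripts with the largest changes at 10 CPM or more show how unevenly trees shared such changes. They were the 2 largest in each direction among 3034 called transcripts with a mean of at least 10 CPM and the same sign in all 4 trees. They are extremes: at 10 to 100 CPM, 7 of 1468 rises and 60 of 1039 falls reached 4-fold. Each reached that mean through 1 of the dates. The 2 that rose averaged 21.2 and 20.7 CPM on 23 Feb, against 1.06 and 1.53 CPM on 7 Feb. The 2 that fell averaged 20.8 and 33.4 CPM on 7 Feb, against 1.44 and 3.52 CPM on 23 Feb. Transcript psme_t021243 had 0.577, 3.54, 19.7 and 61.1 CPM on 23 Feb in CCTO43, CCTO44, CCTO46 and CCTO89, against 0.0449, 0.529, 0.262, 4.32 and 0.137 CPM on 7 Feb in these trees and CCTO90. Every tree was higher on 23 Feb, but the trees differed widely and the dates overlapped, with CCTO43 on 23 Feb below CCTO89 on 7 Feb. Its log2 change was 4.19 ± 0.61 (SE; edgeR adjusted p = 6.78e-06). The 7 Feb values rest on 1, 14, 7, 89 and 3 counts, some of them at the floor, so the size of the rise is imprecise. Transcript psme_t013215 had 3.21, 10.5, 29.7 and 39.3 CPM on 23 Feb, against 0.0449, 2.00, 0.411, 4.03 and 1.14 CPM on 7 Feb, with the trees in the same order. Here too each tree was higher on 23 Feb, CCTO43 was the lowest of the trees on both dates, and the dates overlapped at that tree alone. Its log2 change was 3.69 ± 0.66 (SE; edgeR adjusted p = 0.000194). In CCTO43 the 7 Feb value was 1 count.

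On the falling side, psme_t195760 had 3.96, 0.313, 0.798 and 0.678 CPM on 23 Feb in CCTO43, CCTO44, CCTO46 and CCTO89, against 59.8, 13.8, 5.12, 17.9 and 7.43 CPM on 7 Feb in these trees and CCTO90. The dates did not overlap, and CCTO43 was the highest tree on both. The log2 change was -4.50 ± 0.52 (SE; edgeR adjusted p = 1.49e-07). Transcript psme_t026350 had 0.260, 0.908, 12.0 and 0.848 CPM on 23 Feb, against 4.72, 53.6, 61.8, 40.6 and 6.29 CPM on 7 Feb. The dates overlapped through CCTO46, which on 23 Feb was still above CCTO43 and CCTO90 on 7 Feb. The log2 change was -4.15 ± 0.97 (SE; edgeR adjusted p = 0.00346). That call was lost without CCTO44 (adjusted p = 0.0614) and without the tree block (adjusted p = 0.0746).

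**Figure D2:**
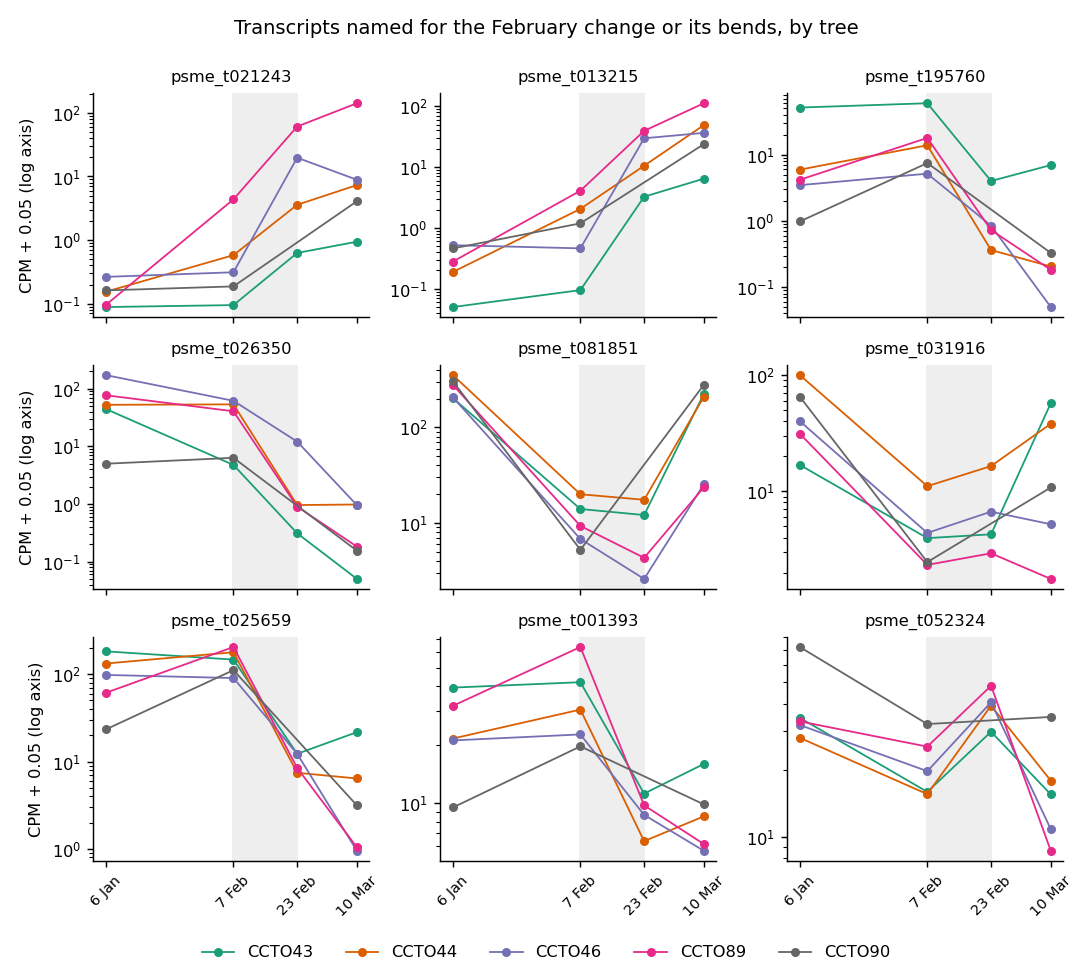
Level of 9 transcripts in each tree on 6 Jan, 7 Feb, 23 Feb and 10 Mar 2011, in CPM plus 0.05 on log axes, with 1 line per tree and the interval from 7 to 23 Feb shaded. CCTO90 has no point on 23 Feb. Transcripts psme_t195760, psme_t025659 and psme_t001393 drop within the shaded interval in each tree that spans it. Transcript psme_t081851 stays low through that interval between higher values on 6 Jan and 10 Mar, which on 10 Mar are lowest in CCTO46 and CCTO89.

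The February transcripts were then read in the longer change from 6 Jan to 10 Mar, which contrasts other libraries than the February comparison but comes from the same fit, with shared tree effects and a shared estimate of spread. On 10 Mar against 6 Jan 2011, dates on either side, 35656 transcripts differed (58.5%), 17764 of them higher (29.2%) and 17892 lower (29.4%), by the same edgeR test at an adjusted p under 0.05. Of the 3639 transcripts that rose in February, 3371 were also higher on 10 Mar than on 6 Jan, which is 92.6%, and 33 were lower. Of the 3138 that fell, 2797 were lower on 10 Mar, which is 89.1%, and 20 were higher. The median log2 change between these outer dates was 1.66 in the rising set, with quartiles of 1.09 and 2.36, and -1.90 in the falling set, with quartiles of -3.22 and -1.14, beside 0.08 over all transcripts tested. When each comparison was fitted to its own dates alone, so that neither tree effects nor the estimate of spread were shared, the shares were 83.0% of 7290 rising and 81.7% of 5699 falling transcripts.

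**Figure D3:**
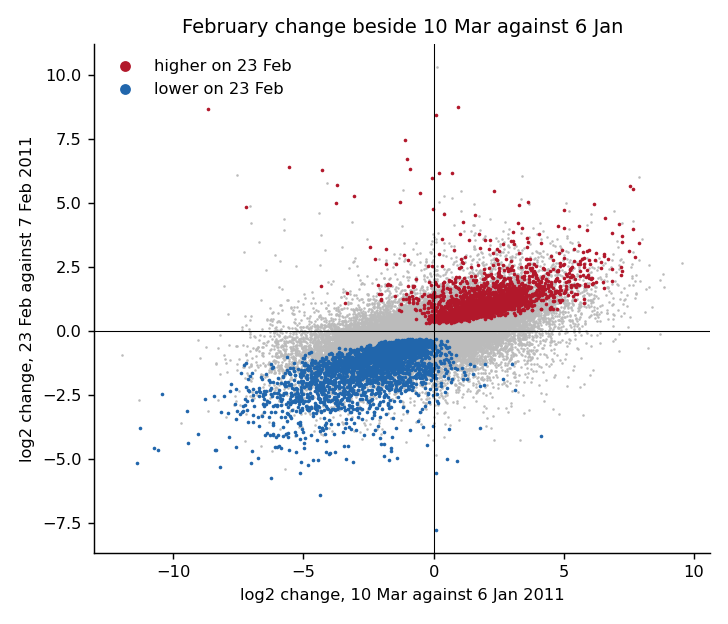
Log2 change on 23 Feb against 7 Feb 2011 (vertical axis) and on 10 Mar against 6 Jan 2011 (horizontal axis) of each tested transcript, with transcripts called higher on 23 Feb in red, called lower in blue and the rest in grey; the axes contrast different libraries of 1 fit, which shares tree effects and the estimate of spread. Red points lie to the right of 0 and blue points to the left, apart from a thin scatter that includes the 33 and 20 transcripts called in opposite directions.

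CCTO90 has no library of 23 Feb, but it could be read on the outer dates. In its library of 10 Mar against its own of 6 Jan, the median log2 change was 1.69 in the set that rose in February and -1.57 in the set that fell. In the other 4 trees the medians nearest to 0 were 1.18 and -1.46, both in CCTO43.

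A few transcripts went the other way in February than over the whole passage. Of the 33 that rose in February but were lower on 10 Mar than on 6 Jan, 5 had at least 10 CPM, and of the 20 that fell but were higher on 10 Mar, 5 did. One that rose in February, psme_t052324, is described with the bends between intervals.

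Set against midsummer, the February changes ran from the winter side towards the summer side. On 6 Jan against 17 Jun 2011, again other libraries of the same fit, 36518 transcripts differed (59.9%) by the edgeR test, 19259 of them higher (31.6%) and 17259 lower (28.3%). Of the transcripts that rose in February, 77.7% were lower on 6 Jan than on 17 Jun and 5.33% were higher, with a median log2 difference of -1.43. Of those that fell, 79.4% were higher on 6 Jan and 3.22% were lower, with a median of 1.71. The median over all transcripts was 0.10.

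Over the other 14 dates of the year, both sets turned around the same part of winter. On 30 Nov or 6 Jan, 2177 of the transcripts that rose in February had their lowest date mean, which is 59.8% against 21.9% of all transcripts tested. Their highest date mean was between 10 Mar and 6 May in 2312 cases, or 63.5%, against 25.4% of all. The transcripts that fell were highest on 30 Nov or 6 Jan in 2071 of 3138 cases, against 24.7% of all, and lowest between 10 Mar and 6 May in 1476 cases, or 47.0%, against 22.0%.

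Over the rest of the year the sets were read as means over the trees sampled on each date. These were 5 in January and March, 4 on 17 Jun, 2 on 7 Sep and 3 on each October date of 2011. CCTO43 has no library from 7 Apr to 7 Sep 2011. From 7 Apr 2011 on, tree and date therefore cannot be told apart in these means, nor in the highest and lowest dates given above. Relative to their mean over the 14 dates, the rising set had a median log2 level of -0.86 on 6 Jan, 0.69 on 10 Mar and 0.48 on 17 Jun. It was at 0.18 on 7 Sep, -0.31 on 7 Oct and -0.36 on 26 Oct 2011. The falling set stood at 1.06 on 6 Jan, -0.58 on 10 Mar, -0.44 on 17 Jun and -0.37 on 7 Sep. It was at 0.19 on 7 Oct and back at -0.04 on 26 Oct 2011.

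**Figure D4:**
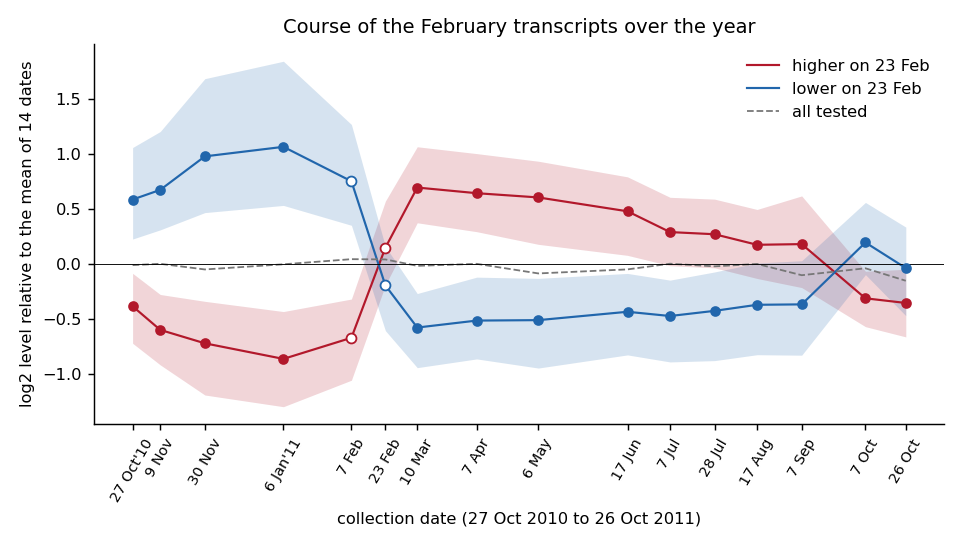
Median log2 level of the transcripts that rose (red) and fell (blue) between 7 and 23 Feb, relative to each transcript's mean over the 14 other dates, by collection date, with bands from the lower to the upper quartile over transcripts and a dashed line for all tested transcripts. Open points are 7 and 23 Feb, which chose the sets; the red median is lowest on 6 Jan at -0.86 and highest on 10 Mar at 0.69, and the blue median is highest on 6 Jan at 1.06.

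How far the needles had come by each February date was measured as a position between the state of 6 Jan, set to 0, and that of 10 Mar, set to 1. For each tree the direction from 6 Jan to 10 Mar was taken from the other trees over all 60931 transcripts. On 23 Feb the position was 0.775 in CCTO43, 0.716 in CCTO44, 0.649 in CCTO46 and 0.639 in CCTO89. On 7 Feb it was 0.402, 0.302, 0.321 and 0.379 in these trees and 0.391 in CCTO90. The dates did not overlap. The mean was 0.695 ± 0.0632 (SD, n = 4) on 23 Feb and 0.359 ± 0.0446 (SD, n = 5) on 7 Feb, and the difference within trees was 0.344 ± 0.0655 (SD, n = 4), higher on 23 Feb in 4 of 4 trees. A two-sided exact sign-flip test over the 4 trees gave p = 0.125, the smallest it can give.

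At an even pace between 6 Jan and 10 Mar, the positions would have been 0.762 on 23 Feb and 0.508 on 7 Feb. On 23 Feb 3 of the 4 trees were behind that pace and CCTO43 was ahead of it, and on 7 Feb all 5 trees were behind it. Per day, the position advanced by 0.0110 ± 0.00147 over the 32 days from 6 Jan to 7 Feb, by 0.0215 ± 0.00409 over the 16 days to 23 Feb and by 0.0204 ± 0.00422 over the 15 days to 10 Mar (mean ± SD, n = 4 trees). February was faster than January by 0.0105 per day, in 4 of 4 trees, with an exact sign-flip p of 0.125, the smallest possible. February exceeded the following interval by 0.00112 per day, with 2 of 4 trees on each side of 0 and an exact sign-flip p of 0.875. The daily pace was computed after the positions had been seen.

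**Figure D5:**
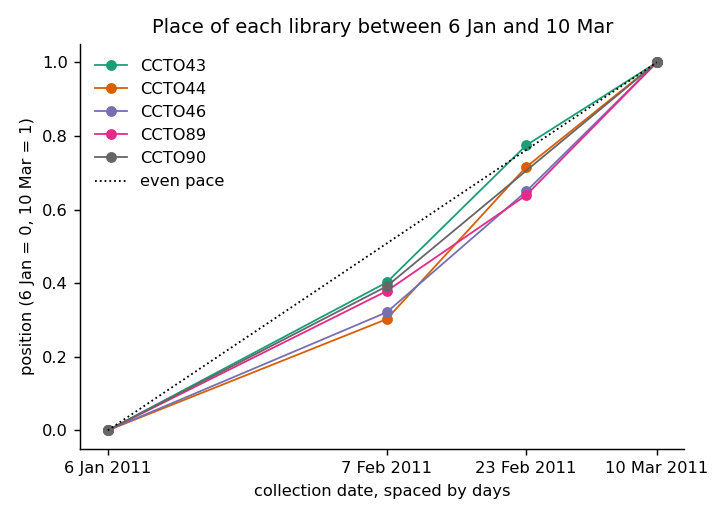
Position of each library between 6 Jan (0) and 10 Mar 2011 (1) by collection date, spaced by days, with 1 line per tree and a dotted line for an even pace. On 23 Feb the 4 trees lie between 0.639 and 0.775, and on 7 Feb all 5 trees lie between 0.302 and 0.402, under the dotted line.

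The intervals on either side were counted with the same edgeR test at an adjusted p under 0.05, and they share libraries of 7 or 23 Feb with the February comparison. On 7 Feb against 6 Jan, 12321 transcripts were called (20.2%), 5164 higher (8.48%) and 7157 lower (11.7%). On 10 Mar against 23 Feb, 12460 were called (20.4%), 6464 higher (10.6%) and 5996 lower (9.84%). The February count of 6777 was the lowest of the 3. Without CCTO90, which had no library on 23 Feb, it was still the lowest, with 9404 for January, 7239 for February and 7598 for the interval to 10 Mar. With only the 16 winter libraries of the other 4 trees, which also leaves out all other dates, the counts were 11870, 10014 and 9821 in the same order of dates.

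Transcripts that bent at 7 Feb were found by testing the difference between the February and the January change in 1 contrast. The February change was above the January change in 482 transcripts (0.791%) and below it in 820 (1.35%), by the edgeR test at an adjusted p under 0.05. The total of 1302, or 2.14%, ranged widely with the model, from 377 without the tree block to 6430 with the libraries of the 3 dates alone, and the split ranged too, with 3243 above and 3187 below in that last fit and 1898 above and 1579 below with DESeq2, and leaving out a tree lowered it to between 226 without CCTO44 and 737 without CCTO90. The contrast is per interval and not per day, and the February interval was 16 days long, against 32 for the January interval. A steady daily change could therefore be called a bend here, and how many of the calls are of that kind was not tested.

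Transcript psme_t081851 had the largest upward bend at 10 CPM or more with the same sign in all 4 trees. It had 12.1, 17.4, 2.55 and 4.28 CPM on 23 Feb in CCTO43, CCTO44, CCTO46 and CCTO89, against 13.97, 19.9, 6.76, 9.27 and 5.19 CPM on 7 Feb in these trees and CCTO90. The dates overlapped, and the log2 change of -0.32 ± 0.50 (SE) over February did not pass the edgeR test (adjusted p = 0.767). On 6 Jan the same transcript had 202 to 352 CPM in the 5 trees, so the bend came from the drop before 7 Feb. Its February change exceeded its January change by 4.34 ± 0.89 on the log2 scale (SE; edgeR adjusted p = 0.00359). On 10 Mar it was back at 224, 210 and 279 CPM in CCTO43, CCTO44 and CCTO90 and at 25.4 and 23.6 CPM in CCTO46 and CCTO89, and the March change exceeded the February change by 4.21 ± 0.97 (SE; edgeR adjusted p = 0.0461). These calls were lost in 2 and 12 of 17 alternative settings. Both February dates thus lay in a trough between 6 Jan and 10 Mar for this transcript, with means of 11.0 and 9.09 CPM. It was similarly low in the autumn before, at 14.8 ± 4.86 CPM on 27 Oct and 8.05 ± 1.65 CPM on 9 Nov 2010 (SD, n = 5). It averaged 358 ± 47.0 CPM on 30 Nov (SD, n = 5) and 2.45 ± 0.967 CPM on 7 Jul (SD, n = 4).

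Transcript psme_t031916 was low on both February dates as well, at 4.22, 16.4, 6.62 and 2.88 CPM on 23 Feb, against 3.91, 11.0, 4.33, 2.28 and 2.41 CPM on 7 Feb. Each of the 4 trees was slightly higher on 23 Feb, with dates that overlapped and a log2 change of 0.67 ± 0.65 (SE) that did not pass the edgeR test (adjusted p = 0.59). The difference from its January change, 4.07 ± 1.15 (SE; edgeR adjusted p = 0.0475), was near the threshold and was not called in 11 of 17 alternative settings.

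The 2 largest downward bends were in transcripts that fell in February. For psme_t195760, the February change minus the January change was -5.91 ± 0.72 (log2, SE; edgeR adjusted p = 3.25e-07), a call lost without the tree block (adjusted p = 0.158). It rose between 6 Jan and 7 Feb by 1.40 ± 0.38 (log2, SE; edgeR adjusted p = 0.0054) before the February fall given above. After that fall it averaged 1.50 ± 3.03 CPM on 10 Mar (SD, n = 5) and 0.0115 ± 0.0230 CPM on 28 Jul (SD, n = 4). These means are of different trees, since CCTO43 has no library of 28 Jul. On 10 Mar CCTO43 had 6.92 CPM and the other trees 0 to 0.278 CPM.

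Transcript psme_t025659 had 12.2, 7.39, 12.2 and 8.39 CPM on 23 Feb, against 147, 178, 90.2, 204 and 111 CPM on 7 Feb, with the trees in the order used above. All 4 trees were in a narrow band on 23 Feb and the dates did not overlap. Its February log2 change was -4.02 ± 0.82 (SE; edgeR adjusted p = 0.00095), and minus the January change it was -4.83 ± 1.15 (SE; edgeR adjusted p = 0.0154), a call lost in 4 of 17 alternative settings. Its date means were between 0.529 and 14.04 CPM on the 11 dates from 23 Feb on, against 62.9 to 177 CPM on the 5 dates from 27 Oct 2010 to 7 Feb.

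Fewer bends were called at 23 Feb, but the counts are not like for like. Those at 7 Feb set 16 days against 32. The median standard error was 0.744 for the contrast at 23 Feb and 0.687 for that at 7 Feb. The change to 10 Mar was above the February change in 24 transcripts (0.0394%) and below it in 96 (0.158%), by the edgeR test at an adjusted p under 0.05, over intervals of nearly equal length. The total of 120, or 0.197%, became 36 without CCTO43, 33 without CCTO44, 37 without CCTO46, 19 without CCTO89 and 1378 with DESeq2, where 787 were above and 591 below, so that the majority turned round.

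Transcript psme_t001393 showed a step. It had 11.1, 6.29, 8.62 and 9.66 CPM on 23 Feb, against 42.0, 30.3, 22.5, 63.9 and 19.5 CPM on 7 Feb, and the dates did not overlap. The log2 change was -2.04 ± 0.28 (SE; edgeR adjusted p = 4.19e-06), while from 23 Feb to 10 Mar it was 0.11 ± 0.27 (SE; edgeR adjusted p = 0.828). The difference between those changes was 2.15 ± 0.50 (SE; edgeR adjusted p = 0.0461), a call that was lost in 10 of 17 alternative settings. Its date means were 8.92 to 15.8 CPM on the 11 dates from 23 Feb to 26 Oct 2011, against 24.6 to 48.9 CPM on the 5 dates up to 7 Feb.

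Transcript psme_t052324 swung up in February and down in March. It had 29.8, 39.1, 40.5 and 48.1 CPM on 23 Feb, against 15.9, 15.5, 19.7, 25.5 and 32.3 CPM on 7 Feb. Each tree with both dates was higher on 23 Feb, and the dates overlapped only through CCTO90, which has no library of 23 Feb. The log2 change was 1.04 ± 0.23 (SE; edgeR adjusted p = 0.00176), and the March change minus it was -2.50 ± 0.39 (SE; edgeR adjusted p = 0.000336), a call lost without the tree block (adjusted p = 0.217). Its date means alternated, at 39.9 ± 18.1 CPM on 6 Jan, 21.8 ± 7.10 on 7 Feb, 39.3 ± 7.50 on 23 Feb, 17.5 ± 10.3 on 10 Mar, 50.7 ± 12.7 on 7 Apr and 11.4 ± 7.58 on 6 May (SD, n = 4 or 5). Each collection fell near noon on 1 day, and the part that the day's weather had in these swings was not tested.

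The other downward bend at 23 Feb was in psme_t021243, whose steep February rise was followed by a log2 change of 0.26 ± 0.48 (SE; edgeR adjusted p = 0.756) to 10 Mar. The difference of -3.93 ± 0.89 (SE; edgeR adjusted p = 0.0388) was lost in 10 of 17 alternative settings. Without CCTO46 the difference was -2.34 (edgeR adjusted p = 0.56). Its date means were 0.103 ± 0.0703 CPM on 6 Jan (SD, n = 5), 32.6 ± 61.2 CPM on 10 Mar (SD, n = 5) and 72.6 ± 87.8 CPM on 7 Jul (SD, n = 4), followed by 0.565 ± 0.276 CPM on 7 Oct (SD, n = 3). CCTO89 was the highest tree in February and March, at 61.1 CPM on 23 Feb and 142 CPM on 10 Mar. It has no library of 7 Oct, and CCTO43 has none of 7 Jul, so these means come from different trees. The trees sampled had 21.5 to 204 CPM on 7 Jul and 0.278 to 0.827 CPM on 7 Oct.

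The transcripts with the largest changes between the outer dates, 10 Mar against 6 Jan, were at different points of that change in February. Transcript psme_t013215 was higher on 10 Mar by a log2 change of 7.23 ± 0.80 (SE; edgeR adjusted p = 1.1e-10), of which 3.69 came between 7 and 23 Feb. It went on to 130 ± 15.6 CPM on 7 Jul (SD, n = 4) and was at 2.84 ± 1.46 CPM on 7 Oct (SD, n = 3). Transcript psme_t026350 was lower on 10 Mar, with a log2 change of -7.86 ± 1.13 (SE; edgeR adjusted p = 7.26e-08), of which -4.15 came between 7 and 23 Feb.

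Transcript psme_t048827 was already low by 7 Feb. It averaged 35.4 ± 27.6 CPM on 6 Jan, 2.17 ± 2.11 CPM on 7 Feb, 0.265 ± 0.250 CPM on 23 Feb and 0.142 ± 0.255 CPM on 10 Mar (SD, n = 5 trees, and 4 on 23 Feb). The February step was -3.21 ± 0.69 (log2, SE; edgeR adjusted p = 0.00126) and the step before it -3.97 ± 0.46 (log2, SE; edgeR adjusted p = 3.93e-09). The February step ended near the floor, at 4, 1, 4 and 14 counts on 23 Feb in CCTO43, CCTO44, CCTO46 and CCTO89. Transcript psme_t000637, the largest rise to 10 Mar, took its size from 1 library, CCTO46 on 10 Mar at 760 CPM, against 1.03 to 10.0 CPM in the other 4 trees that day. Its log2 change of 8.15 ± 1.47 (SE; edgeR adjusted p = 5.99e-06) became 3.51 without CCTO46, where it still passed (edgeR adjusted p = 0.002), and it did not pass the test over February, at 1.65 ± 1.43 (SE; edgeR adjusted p = 0.534).

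The breadth of the transcriptome was compared after drawing 10951919 counts from each library. On 23 Feb 76184, 74816, 74583 and 76517 transcripts had a count in CCTO43, CCTO44, CCTO46 and CCTO89, against 81827, 84055, 88170, 75462 and 77410 on 7 Feb in these trees and CCTO90. Fewer transcripts were detected on 23 Feb in 3 of 4 trees, with CCTO89 the exception, and the dates overlapped. The mean was 75525 ± 968 (SD, n = 4) on 23 Feb and 81385 ± 5105 (SD, n = 5) on 7 Feb, with a two-sided exact permutation p of 0.0714 and 0.143 after adjustment over the pair of library measures. The exact sign-flip test over the 4 trees gave p = 0.25.

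The 20 most abundant transcripts of each library held 11.6%, 9.90%, 10.0% and 9.82% of its counts on 23 Feb, against 9.61%, 10.1%, 9.47%, 15.4% and 11.9% on 7 Feb. CCTO89 on 7 Feb was the highest of the 9 and the other libraries lay between 9.47% and 11.9%. The means were 10.3% ± 0.833 (SD, n = 4) on 23 Feb and 11.3% ± 2.49 (SD, n = 5) on 7 Feb, a difference smaller than the spread between trees (exact permutation p = 0.611, also after adjustment). Without CCTO89 the mean difference within trees turned from -0.827 to 0.761 percentage points.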

How the data were processed

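Needle RNA of 5 trees and 16 dates was sequenced as dUTP strand-marked poly(A) libraries, per the labels' protocols. CASAVA 1.8, Bowtie2 2.2.3 and DESeq are named in the submitters' processing notes; the transcript reference and counting settings are not stated there, which leaves the assignment of reads among near-identical or antisense transcripts unknown. The authors deposited a table of whole-number counts, with 199471 transcripts (28846 of them without any count) and 66 libraries, and these counts were tested as deposited. The authors also deposited a normalized signal table, used here only for the scaling factor per library that it implies. An interpolated table was not used.

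Transcripts were kept by filterByExpr by date, at a minimum count of 10. Models in edgeR 4.0.16 (R 4.3.3) used TMM factors, date, tree as a block and all 66 libraries, with robust quasi-likelihood fits of the current (not legacy) kind, F tests and Benjamini-Hochberg adjustment over all 60931 transcripts at 0.05. DESeq2 1.42.0 and limma 3.58.1 served as alternatives. Log2 CPM used a prior count of 2. Replicates are trees, which return on each date: same-numbered samples come from the same tree, and each of the 9 libraries correlated best with its own tree. Sampling noise alone did not account for the difference between any 2 of the 9, the smallest chi-square per degree of freedom being 33.8.

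Position was the projection of each library's log2 CPM difference from the same tree's 6 Jan library onto the mean difference of 10 Mar minus 6 Jan in the other trees, divided by that of its own 10 Mar library. Transcripts were named by rule: for each contrast, a mean of at least 10 CPM over its dates, an adjusted p under 0.05, the same sign in every tree with all of its dates, and of these the 2 largest log2 values in each direction. The kind of quasi-likelihood fit was settled after both had been run, as the one that gave the counts of an earlier analysis of these data; the other, with trended dispersions, called 5434 transcripts on 23 Feb against 7 Feb. The scripts were tested on simulated data. The comparison, lists and tests were chosen with earlier results of these data known.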

Additional observations from a re-analysis of the deposited data

Results flagged for a closer look

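Within a date, 7 of 30 groups of libraries looked at had 1 library far from the others by Dixon's test at the 95% level. Chance gives about 1 in 20 groups only for independent groups with normal values. These groups reuse the same trees, and most hold CPM of transcripts named for large changes, so the 7 cannot be judged by that rate. On 23 Feb the share of counts in the 20 most abundant transcripts was highest in CCTO43, at 11.6%, and apart from the other 3 trees. CCTO43 also stood apart for psme_t195760 on both dates, at 3.96 CPM on 23 Feb and 59.8 CPM on 7 Feb, so the tree was high throughout and its change was in the same direction as that of the others. For psme_t026350 on 23 Feb, CCTO46 stood apart at 12.0 CPM. On 7 Feb the library apart was CCTO89 for psme_t021243 at 4.32 CPM, CCTO44 for psme_t031916 at 11.0 CPM and CCTO43 for psme_t000637 at 1.93 CPM.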

How the results depend on the processing

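No transcript called on 23 Feb against 7 Feb was called in the opposite direction in any of the 19 alternatives. The count of 6777 became 3863 with no filter on low counts, 12989 with only the libraries of the dates compared, 3095 with no replicate block and 2705 without the 23 Feb libraries of CCTO43 and CCTO46, the last chosen after seeing the data; leaving out 1 tree gave 1813 to 7239. It stayed within 1.5 times the count under other scalings, DESeq2 and limma-voom. The bends at 7 Feb, 1302, became 563 with no filter, 6430 with only the dates compared, 2171 with only the 4 winter dates, 377 with no replicate block, 3477 with DESeq2, 702 with trended dispersions (chosen after seeing the data) and 226 to 737 without 1 tree. The bends at 23 Feb, 120, became 427, 22 and 1378 under the winter dates, no replicate block and DESeq2, and 26 with trended dispersions and 394 with 16 balanced libraries, both chosen after seeing the data; without 1 tree they were 19 to 87. Transcripts called on 10 Mar against 6 Jan, 35656, were 20212 among those with at least 1 CPM in February, where fewer were tested, and 30868 to 34911 without 1 tree. Transcripts called the same way in February and on 10 Mar against 6 Jan, 6168, became 3510 with no filter, 10706 with only the dates compared, 2867 with no replicate block and 1674 to 6482 without 1 tree, while the share of the rising set stayed at 91.4% to 94.0% and of the falling set at 87.1% to 91.5% without 1 tree. The cause of these shifts was not tested. The position difference of 0.344 was 0.320 to 0.371 without 1 tree. The difference in transcripts detected was -9490 to -4609 without 1 tree, and that in the share of the 20 most abundant transcripts, -0.827 percentage points, was -1.75 to 0.761 without 1 tree and 1.49 for the 100 most abundant. Named transcripts kept their direction in every recomputed value, with the call kept in 227 and lost in 53. The smallest library, CCTO46 on 23 Feb with 10951919 counts, limits what can be seen in rare transcripts.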
